A study of Mus musculus with 20 samples.

Results

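Histone marks were followed at 10 genes of early lymphoid development in lineage-negative (Lin-) bone marrow cells of mice. The genes were *Dntt*, *Rag1*, *Rag2*, and *Il7r*, of lymphoid priming and antigen receptor gene assembly, *Satb1*, *Bcl11b*, *Tcf7*, and *Gata3*, which encode nuclear factors of T cell development, and *Cd2* and *Lck*, of the T cell surface and its signaling. A peak was taken as a member when it overlapped one of these gene bodies in the GENCODE annotation of the mm10 genome, extended by 30 kb on either side. The 10 genes, of 21951 protein-coding genes, held 583 of the 591292 peaks in the 12 lists. The windows of *Rag1* and *Rag2*, which are neighbors on chromosome 2, overlapped, and a region in both was counted a single time in totals over the 10 genes.

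As background, early lymphoid progenitors transcribe some lymphoid genes at a low level before they commit to a lineage, which is called lymphoid priming. The Rag1 and Rag2 proteins together cut DNA at antigen receptor genes, the product of *Dntt* adds untemplated nucleotides at the joints, and proteins of nonhomologous end joining close the breaks, a process called V(D)J recombination. Of the marks measured, H3K4me3 marks promoters, H3K4me1 marks enhancers and the flanks of promoters, and H3K27ac, which the acetyltransferase p300 (encoded by *Ep300*) can place, marks active promoters and enhancers. Tet2 oxidizes methylated cytosine in DNA.

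The study asked how loss of p300 alters the chromatin of *Tet2*-deficient blood progenitors. All mice were of the C57BL/6 strain and carried *Ep300* fl/fl. At an age of 6 to 8 weeks they received 3 intraperitoneal injections of poly(I:C) at 10 μg per gram, every other day. The WT mice were *Ep300* fl/fl without Cre, *Ep300*Δ/Δ mice were *Mx1*-Cre;*Ep300* fl/fl, *Tet2*-/- mice were *Ep300* fl/fl;*Tet2*-/- with *Tet2* deleted in the germline, and *Ep300*Δ/Δ*Tet2*-/- mice, called double-deficient here, were *Mx1*-Cre;*Ep300* fl/fl;*Tet2*-/-. The *Mx1* promoter that drives Cre answers to interferon and is not limited to a single blood lineage. Each list came from 1 ChIP-Seq library of Lin- cells, so that each genotype and mark had 1 sample, no comparison below had a replicate check, and no test between genotypes could be made. The number of mice per library was not given in the sources used here. In such a bulk population, fewer cells that carry a mark and less of the mark per cell cannot be told apart.

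The H3K27ac lists held 18327 to 29659 peaks, the H3K4me1 lists 90738 to 107392, and the H3K4me3 lists 25012 to 27807. For H3K27ac the WT list was the longest and the double-deficient list the shortest. Peak lists do not give the sequencing depth of a library, so a region that misses the threshold in a list is called absent from that list, not unmarked. Of the 5 stem and progenitor cell genes examined, *Kit*, *Flt3*, and *Mpo* had promoter H3K27ac in all 4 lists, *Cd34* in every list but *Tet2*-/-, and *Gata2* in every list but double-deficient. Of 5 T cell marker genes, the promoters of *Cd4*, *Cd8a*, and *Cd3e* had no peak of any mark in any list, *Cd5* had promoter H3K27ac in every list but double-deficient, and *Cd3g* had promoter H3K4me3 in every list but WT. Promoter H3K27ac was present at 2, 0, 1, and 0 of 4 granulocyte marker genes in the WT, *Ep300*Δ/Δ, *Tet2*-/-, and double-deficient lists, at 1, 0, 0, and 0 of 5 B cell markers, at 4, 4, 3, and 3 of 4 erythroid markers, and at 2, 1, 1, and 2 of 4 NK cell markers. Of all coding genes, 47.3%, 44.9%, 46.4%, and 43.1% had promoter H3K27ac in the same order of lists. The part of these other cells in the results below was not tested.

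Promoter sequences are shown for the recombination genes, for *Il7r*, and for *Bcl11b*, because *Dntt* lacked promoter H3K27ac in the double-deficient list and the other genes shown had it in no list. *Tcf7* also had it in no list but is not shown. Each run holds the 250 bases before the gene start in RefSeq (GRCm38.p6, the assembly also called mm10), written 5′ to 3′ in the direction of the gene. Capitals mark matches, on either strand, to 6 short words: TGTGGT, bound by RUNX factors, GGAAGT, bound by ETS factors, AGATAA, bound by GATA factors, CAGCTG or CAGGTG, which are E boxes, CTTTGA, bound by TCF factors, and TGGGAA, bound by Ikaros.
*Rag1* promoter, chr2:101649533-101649782, minus strand: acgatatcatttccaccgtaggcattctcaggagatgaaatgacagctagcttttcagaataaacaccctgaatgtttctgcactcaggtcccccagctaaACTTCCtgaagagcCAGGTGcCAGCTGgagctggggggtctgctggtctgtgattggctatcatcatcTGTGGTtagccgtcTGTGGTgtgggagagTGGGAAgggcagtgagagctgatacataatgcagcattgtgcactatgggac
*Rag2* promoter, chr2:101624462-101624711, plus strand: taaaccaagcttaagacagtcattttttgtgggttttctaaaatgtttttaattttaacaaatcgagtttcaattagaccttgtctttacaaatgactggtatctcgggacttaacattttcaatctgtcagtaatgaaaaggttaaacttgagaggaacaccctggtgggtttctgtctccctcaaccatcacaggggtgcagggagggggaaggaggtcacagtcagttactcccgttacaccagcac
*Dntt* promoter, chr19:41029025-41029274, plus strand: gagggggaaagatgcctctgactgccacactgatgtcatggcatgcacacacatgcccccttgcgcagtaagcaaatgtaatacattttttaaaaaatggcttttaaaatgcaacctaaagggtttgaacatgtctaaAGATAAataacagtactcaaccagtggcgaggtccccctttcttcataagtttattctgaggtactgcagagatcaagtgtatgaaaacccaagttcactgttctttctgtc
*Il7r* promoter, chr15:9529877-9530126, minus strand: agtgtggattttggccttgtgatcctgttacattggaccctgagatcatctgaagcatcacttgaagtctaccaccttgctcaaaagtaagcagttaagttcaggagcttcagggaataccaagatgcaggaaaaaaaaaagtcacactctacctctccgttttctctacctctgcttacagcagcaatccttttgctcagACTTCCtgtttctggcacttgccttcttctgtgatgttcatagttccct
*Bcl11b* promoter, chr12:108003415-108003664, minus strand: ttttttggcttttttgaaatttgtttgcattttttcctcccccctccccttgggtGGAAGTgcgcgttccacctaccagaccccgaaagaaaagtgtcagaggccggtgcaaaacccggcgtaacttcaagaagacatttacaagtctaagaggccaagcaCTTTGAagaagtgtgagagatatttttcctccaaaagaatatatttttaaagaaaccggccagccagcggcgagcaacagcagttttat
A promoter sequence was found for 9 of the 10 genes. *Cd2* was not matched.

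The *Rag1* run held 2 matches of the RUNX word, 1 of the ETS word, 2 E boxes, and 1 of the Ikaros word. The *Rag2* run held no match of any of the 6 words. Of all 32851 promoter runs of that length, 14% held the RUNX word, 19.7% the ETS word, 27.7% an E box, 21.6% the Ikaros word, 9.99% the GATA word, and 13.8% the TCF word. The ratio of observed to expected CpG dinucleotides was 0.19 for *Rag1*, 0.283 for *Rag2*, 0.185 for *Dntt*, and 0.0844 for *Il7r*, all below the median of 0.373 over all promoters. It was 0.718 for *Bcl11b* and 0.633 for *Gata3*, above that median. Genes with several RefSeq starts had 1.03 and 0.58 (*Tcf7*), 0.0514 and 0.152 (*Lck*), and 0.151 to 1.05 (*Satb1*). A match is a description of the letters and does not show binding.

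The 201 bases around the summit of 5 H3K27ac regions are shown because they differ in the lists that contain them. The *Dntt* intron region lay within the promoter window of *Dntt*, and the *Tcf7* region lay within 3000 bp of the start of another gene, *Gm26551*. The *Dntt* upstream region was in all 4 H3K27ac lists, the *Dntt* intron region in all but the double-deficient list, the *Il7r* region in the *Tet2*-/- list alone, the *Tcf7* region in all but the double-deficient list, and the *Satb1* region in the double-deficient list alone. Capitals have the same meaning.
*Dntt* upstream region, chr19:41016180-41016380, plus strand: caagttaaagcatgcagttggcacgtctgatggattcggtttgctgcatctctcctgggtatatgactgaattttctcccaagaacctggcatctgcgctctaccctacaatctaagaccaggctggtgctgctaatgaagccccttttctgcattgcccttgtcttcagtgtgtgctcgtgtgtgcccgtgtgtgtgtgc
*Dntt* intron region, chr19:41030926-41031126, plus strand: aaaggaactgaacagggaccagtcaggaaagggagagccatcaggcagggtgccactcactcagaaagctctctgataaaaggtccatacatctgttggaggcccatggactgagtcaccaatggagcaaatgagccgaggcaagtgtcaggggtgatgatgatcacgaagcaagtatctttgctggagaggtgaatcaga
*Il7r* intron region, chr15:9523644-9523844, minus strand: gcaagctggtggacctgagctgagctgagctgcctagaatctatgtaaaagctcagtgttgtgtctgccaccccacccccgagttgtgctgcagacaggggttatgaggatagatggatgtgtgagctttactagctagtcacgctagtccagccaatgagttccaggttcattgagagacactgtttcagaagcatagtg
*Tcf7* intron region, chr11:52265968-52266168, minus strand: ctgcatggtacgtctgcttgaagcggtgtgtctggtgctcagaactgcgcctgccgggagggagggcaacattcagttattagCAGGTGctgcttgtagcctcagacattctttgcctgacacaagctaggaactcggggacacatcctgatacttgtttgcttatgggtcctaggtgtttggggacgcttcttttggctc
*Satb1* intron region, chr17:51784788-51784988, minus strand: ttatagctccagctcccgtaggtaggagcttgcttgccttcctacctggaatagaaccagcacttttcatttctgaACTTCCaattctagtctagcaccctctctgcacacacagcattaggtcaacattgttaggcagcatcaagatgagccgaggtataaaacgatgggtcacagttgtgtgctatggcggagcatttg
The *Tcf7* run held 1 E box and the *Satb1* run 1 ETS word, and the other 3 runs held none of the words. Of the same windows around all 29659 WT H3K27ac summits, 28% held an E box and 13.3% the ETS word.

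Across the 10 genes, the WT, *Ep300*Δ/Δ, *Tet2*-/-, and double-deficient lists held 28, 21, 21, and 14 H3K27ac peaks, 102, 81, 99, and 91 H3K4me1 peaks, and 35, 31, 32, and 28 H3K4me3 peaks. Per 100 kb of window, the median gene of the 10 had 2.88 H3K27ac peaks in WT, 1.69 in both *Ep300*Δ/Δ and *Tet2*-/-, and 1.25 in double-deficient, against 1.7, 1.47, 1.57, and 1.34 for the median protein-coding gene. Above that median gene were 7 of the 10 in WT, 6 in *Ep300*Δ/Δ, and 5 in both *Tet2*-/- and double-deficient. For H3K4me1 the median of the 10 genes was 10.6, 8.94, 9.07, and 11.1 peaks per 100 kb in the same order, against 6.38, 5.66, 5.89, and 5.89 for all coding genes. Acetylated peaks at these genes were weak ones in 3 of the 4 lists. Their median fold enrichment stood at percentiles 33.9, 37.6, 34.7, and 53.8 of the WT, *Ep300*Δ/Δ, *Tet2*-/-, and double-deficient lists. *Bcl11b* had no H3K27ac or H3K4me1 peak in any list.

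**Figure D1:**
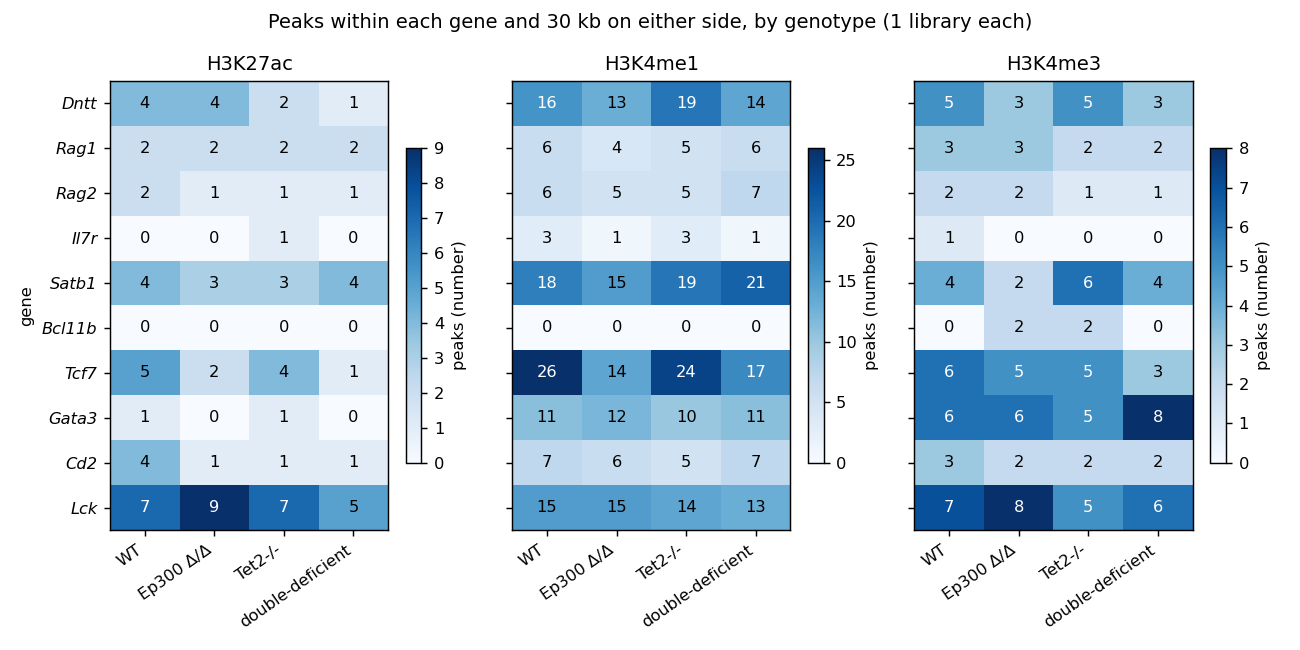
Numbers of peaks overlapping each gene and 30 kb on either side (rows) in the 4 genotypes (columns), in a panel for each mark, with 1 library per square and darker color for more peaks. *Tcf7* had 26 H3K4me1 peaks in WT and 14 in *Ep300*Δ/Δ, and *Bcl11b* had none of H3K27ac or H3K4me1.

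A promoter was called marked when a peak lay within 3000 bp of any transcript start of the gene. H3K27ac marked 5, 4, 5, and 3 of the 10 promoters in the WT, *Ep300*Δ/Δ, *Tet2*-/-, and double-deficient lists, where 47.3%, 44.9%, 46.4%, and 43.1% of all coding genes were marked. The shares at the 10 genes were near this background in 3 of the lists, and 10 genes cannot resolve a difference of that size in the fourth. H3K4me1 marked 9, 6, 7, and 7 promoters (62%, 62.2%, 61.3%, and 62.7% of all coding genes), and H3K4me3 marked 8, 8, 7, and 6 (61.9%, 63.1%, 62.3%, and 62.6%). *Satb1*, *Cd2*, and *Lck* had promoter H3K27ac in all 4 lists, *Dntt* in every list but double-deficient, and *Gata3* in WT and *Tet2*-/- only. *Rag1*, *Rag2*, *Il7r*, *Bcl11b*, and *Tcf7* had promoter H3K27ac in no list. With a stricter limit, a −log10 *q* of 5 or more for every peak counted, the H3K27ac numbers were 5, 1, 3, and 2. The only H3K27ac peak of *Cd2* in the *Ep300*Δ/Δ list had a −log10 *q* of 0.523, so that with *q* under 0.05 *Cd2* had none in that list, and the numbers were 5, 3, 5, and 3.

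*Dntt*, which encodes the terminal deoxynucleotidyl transferase that adds nucleotides at coding joints, had 4, 4, 2, and 1 H3K27ac peaks in the WT, *Ep300*Δ/Δ, *Tet2*-/-, and double-deficient lists. The peak in an intron near its start, chr19:41030904-41031242, 1.52 kb from the nearest start, was in the WT list at 6.28-fold over the H3 library, in the *Ep300*Δ/Δ list at 3.24-fold, in the *Tet2*-/- list at 6.26-fold, and not in the double-deficient list. These folds stood at percentiles 45.6, 8.62, and 47.2 of their lists. H3K4me1 and H3K4me3 peaks overlapped the same place in all 4 lists, including the double-deficient list, where H3K4me1 was 7.57-fold (percentile 88.7) and H3K4me3 was 9.1-fold (percentile 40.7). Acetylation was therefore the single mark missing there from the double-deficient list. A further promoter peak, chr19:41027023-41027388, 1.89 kb upstream of the start, was in the WT list alone at 4.2-fold. Of the remaining *Dntt* H3K27ac regions, 1 lay 15.3 kb upstream in WT alone, at 2.88-fold, and 2 were in *Ep300*Δ/Δ alone, 6.42 kb upstream at 3.5-fold and over an exon 9.48 kb from the nearest start at 3.68-fold.

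The start of *Dntt* itself had H3K4me3 in the lists of mice with intact *Ep300* only. The peak chr19:41029364-41029697 was 4.53-fold in WT and 4.09-fold in *Tet2*-/-, and the neighboring peak chr19:41029908-41030478 was 6.47-fold in WT and 6.23-fold in *Tet2*-/-. Neither was in the *Ep300*Δ/Δ or double-deficient list. All 4 peaks stood at percentile 26.3 or lower of their lists, so these were weak peaks, and 3.02% of all H3K4me3 regions showed the same pattern. The region 12.8 kb upstream, chr19:41016129-41016503, behaved otherwise. It had a peak in all 12 lists, with H3K27ac of 6.34-, 6.21-, 4.46-, and 7.99-fold in WT, *Ep300*Δ/Δ, *Tet2*-/-, and double-deficient. H3K4me1 there was 7.77-, 8.01-, 4.52-, and 7.56-fold, and H3K4me3 was 9.75-, 9.84-, 6.96-, and 10.1-fold. The 12 peaks were 237 to 366 bp wide with starts between 41016129 and 41016200 and ends between 41016416 and 41016519. Of all 35252 H3K27ac regions, 13.1% overlapped a peak in all 12 lists and 2.26% did so outside promoters. At the 10 genes these numbers were 3 and 1 of 38, the latter being this region. The others were a *Lck* promoter region and a region at the neighbor *Hdac1*. H3K4me1 at *Dntt* extended over the window in all genotypes, with 16, 13, 19, and 14 peaks. A group of 4 H3K4me1 regions between 9.29 and 12.1 kb upstream was in the *Tet2*-/- list alone, at 3.18- to 4.66-fold.

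*Rag1* and *Rag2*, which encode the recombinase, had no promoter H3K27ac in any list. The acetylated regions in their windows that were in all 4 lists lay at the starts of neighboring genes. A region at the promoter of *B230118H07Rik*, chr2:101628341-101629022, was 7.9-fold in WT, 4.63-fold in *Ep300*Δ/Δ, 8.32-fold in *Tet2*-/-, and 10.8-fold in double-deficient. The region at the promoter of *Traf6*, which encodes a signaling ubiquitin ligase, was 18.3-, 9-, 4.51-, and 9.02-fold in the same order. These neighbor promoters were in all 4 lists. A further region 22.9 kb upstream of *Rag2*, chr2:101601340-101601810, was in the WT list alone at 5.93-fold. H3K4me1 was present at the *Rag2* start in all 4 lists at 4.31- to 5.39-fold. At the *Rag1* start, chr2:101649320-101649829, it was in the WT list at 3.5-fold and in the double-deficient list at 4.76-fold, and in neither of the other lists. H3K4me3 was absent from the *Rag1* promoter in every list. At *Rag2* a weak H3K4me3 peak was at the start in WT only, at 4.36-fold and percentile 9.63, and a different one lay 2.74 kb upstream in *Ep300*Δ/Δ only, at 3.37-fold and percentile 4.19.

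*Il7r*, which encodes the α chain of the interleukin-7 receptor, had few peaks. Its only H3K27ac peak, chr15:9523579-9523847 in an intron 5.92 kb from the nearest start, was in the *Tet2*-/- list at 5.2-fold and percentile 34.7. H3K4me1 at the same place was 5.74-fold in WT and 6.81-fold in *Tet2*-/-, and was in neither list of the *Ep300*-deleted mice. The H3K4me1 peak at the *Il7r* start, chr15:9529950-9530440, had the same pattern, at 5.5-fold in WT and 3.78-fold in *Tet2*-/-. Another H3K4me1 region, 37.3 kb from the nearest start and downstream of the gene, was in all 4 lists, at 6.04-, 3.91-, 5.43-, and 6.39-fold. A promoter H3K4me3 peak was in the WT list alone, at 5.12-fold and percentile 15.5. Thus 2 of the 3 H3K4me1 regions at *Il7r* were in both lists with *Ep300* and neither without it, a pattern held by 5.71% of all H3K4me1 regions and by 10 of the 118 at the 10 genes.

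**Figure D2:**
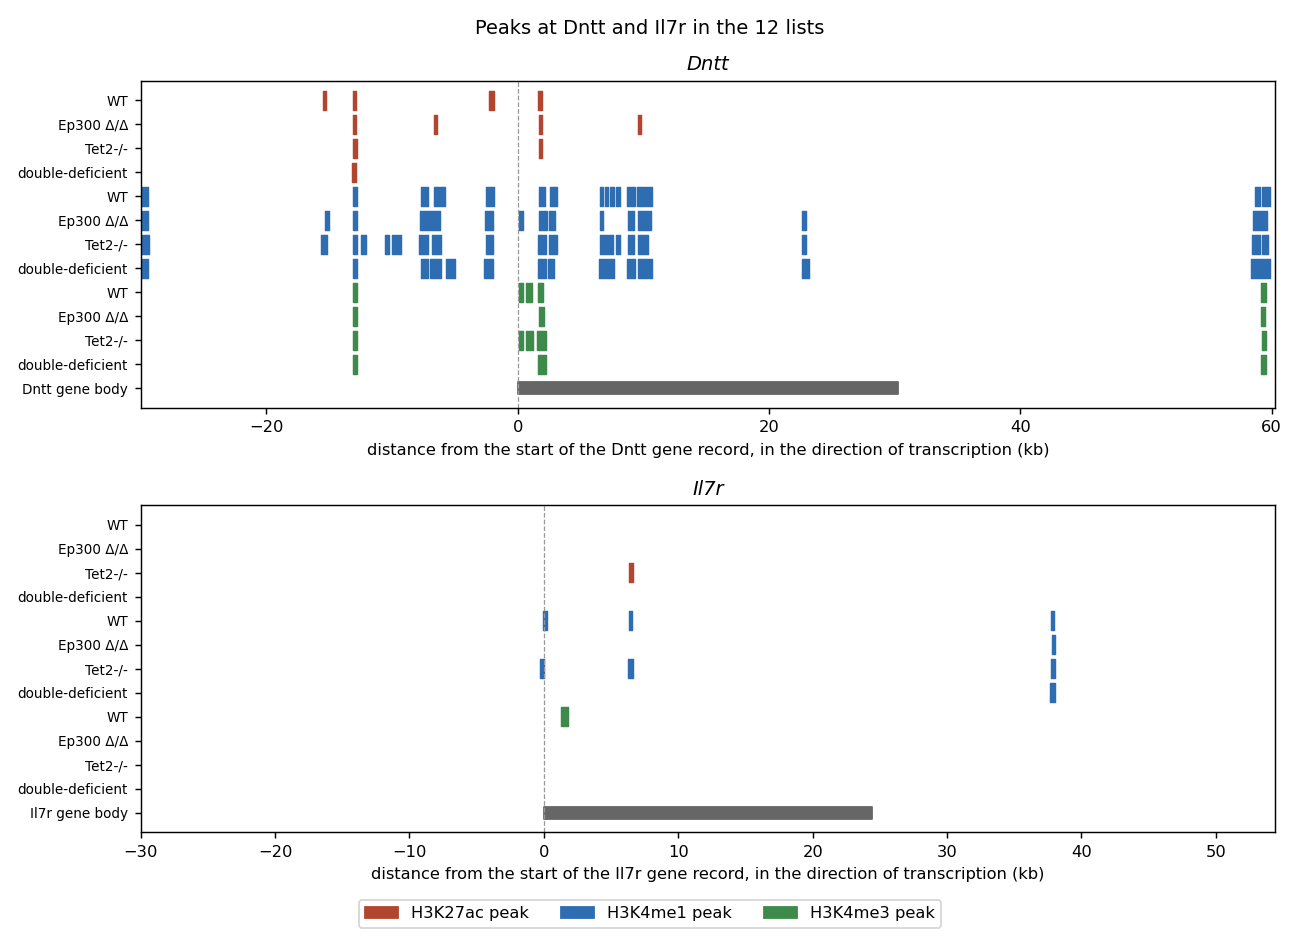
Peaks at *Dntt* and *Il7r* by distance from the start of the gene record in kb (horizontal axis), with a row for each genotype within each mark (color) and the gene body in gray. The *Dntt* region 12.8 kb upstream appears in all 12 rows, and the 2 *Il7r* H3K4me1 peaks at the start and 5.88 kb within the gene appear only in the WT and *Tet2*-/- rows.

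*Tcf7*, which encodes the T cell factor TCF1, had 26, 14, 24, and 17 H3K4me1 peaks in the WT, *Ep300*Δ/Δ, *Tet2*-/-, and double-deficient lists. They covered 18.8, 8.45, 18.2, and 11.1 kb of the window. Both lists with *Ep300* intact were therefore richer than both lists without it. Of the 24 merged H3K4me1 regions, 6 were in WT and *Tet2*-/- and in neither list of the *Ep300*-deleted mice, which was 6 of the 10 such regions at the 10 genes. The strongest of the 6 in WT was chr11:52252815-52253909, over the 3′ end of the gene, at 6.97-fold in WT (percentile 86.7) and 4.39-fold in *Tet2*-/- (percentile 34.5). From WT to *Ep300*Δ/Δ, 13 of 25 H3K4me1 regions at *Tcf7* were lost and 0 of 12 gained, where 36.7% and 24.1% of all H3K4me1 regions were. From *Tet2*-/- to double-deficient, 10 of 23 were lost and 1 of 14 gained, against 31.1% and 23.4%. The whole H3K4me1 lists held 107392, 90738, 98069, and 93465 peaks in the WT, *Ep300*Δ/Δ, *Tet2*-/-, and double-deficient libraries.

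Acetylation at *Tcf7* was confined to an intron and to a neighbor. The strongest H3K27ac region in the window, at 65.8-, 33.3-, 39.7-, and 38.1-fold and at percentile 98.3 or higher of each list, lay at the promoter of *Skp1a*, which encodes a ubiquitin ligase subunit. Within *Tcf7*, the region chr11:52265958-52266836, 15.7 kb from the start, was 4.12-fold in WT, 2.91-fold in *Ep300*Δ/Δ, and 4.44-fold in *Tet2*-/-, and was not in the double-deficient list. The *Ep300*Δ/Δ peak there lay between the peaks of the WT list without overlapping them, so that it counted as gained and they as lost when these lists were compared as a pair. Weak intronic peaks 7.96 and 6.45 kb from the start were in the WT list alone, at 2.99- and 3.33-fold, and another 17 kb from the start was in the *Tet2*-/- list alone at 2.93-fold. The *Ep300*Δ/Δ peak at 15.7 kb had a −log10 *q* of 1.04 and thus a *q* over 0.05. H3K4me3 covered the *Tcf7* start in all 4 lists, at 14.2-, 9.6-, 14.6-, and 11.6-fold.

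*Satb1*, which encodes a chromatin organizer of thymocytes, carried promoter H3K27ac and H3K4me3 in all 4 lists. Its 5′ promoter, chr17:51831295-51832718, was acetylated at 12.3-fold in WT, 5.35-fold in *Ep300*Δ/Δ, 5.28-fold in *Tet2*-/-, and 7.92-fold in double-deficient. An internal promoter, chr17:51812043-51812988, had 5.78-, 8.01-, 4.34-, and 4.92-fold in the same order. A second region at the internal promoter, 0.912 kb from the nearest start, had 3.45-, 9.58-, 7.39-, and 6.85-fold. Within their own lists, the 5′ promoter ranked above both internal regions in WT and double-deficient, below both in *Ep300*Δ/Δ, and between them in *Tet2*-/-. An intronic region, chr17:51784716-51785074, was acetylated in the double-deficient list alone, at 6.85-fold and percentile 49.6. H3K4me1 covered this place in all 4 lists, at 6.72-, 6.47-, 10.6-, and 14.7-fold, and its double-deficient peak stood at percentile 99.8 of that list. Another intronic region, chr17:51760513-51760804, was acetylated in WT alone at 4.92-fold, with H3K4me1 in all 4 lists. The *Satb1* H3K4me1 peaks numbered 18, 15, 19, and 21.

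**Figure D3:**
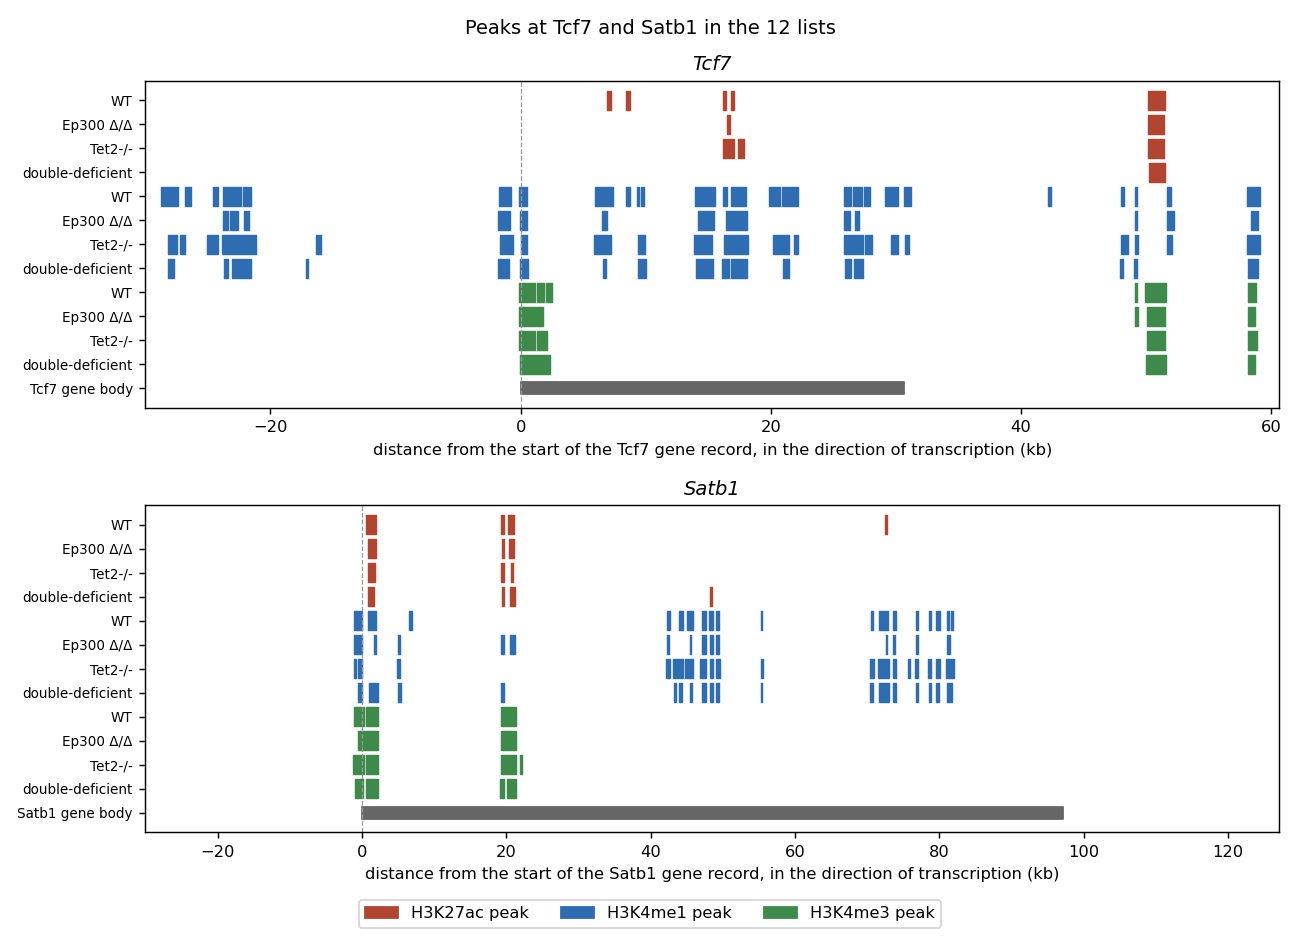
Peaks at *Tcf7* and *Satb1* by distance from the start of the gene record in kb (horizontal axis), with a row for each genotype within each mark (color) and the gene body in gray. *Tcf7* H3K4me1 was sparser in both rows without *Ep300* (14 and 17 peaks) than in WT and *Tet2*-/- (26 and 24), and *Satb1* promoters carried H3K27ac in all 4 rows.

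*Gata3*, which encodes the GATA factor of T cell specification, was rich in methylation and poor in acetylation. It had 1 H3K27ac peak in WT, at 6.78-fold and percentile 50.9, and 1 in *Tet2*-/-, at 3.7-fold and percentile 11.1. The peaks lay in the same intron, 1.56 and 0.699 kb from the nearest start, and did not overlap, and neither list without *Ep300* had a peak there. H3K4me1 and H3K4me3 peaks numbered 11, 12, 10, and 11, and 6, 6, 5, and 8, in the WT, *Ep300*Δ/Δ, *Tet2*-/-, and double-deficient lists. The H3K4me3 region at its RefSeq start, chr2:9876541-9879745, was 11.6-, 21.7-, 13.6-, and 14.6-fold. Both H3K4me3 regions of the 10 genes that were in the *Ep300*Δ/Δ and double-deficient lists and in neither other list were at *Gata3* (1.48% of all H3K4me3 regions), at 4.66- and 7.02-fold in *Ep300*Δ/Δ and 3.96- and 4.81-fold in double-deficient.

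*Bcl11b*, which encodes a zinc finger factor of T cell commitment, had no H3K27ac and no H3K4me1 in 153 kb of window. H3K4me3 near its start, chr12:108002997-108003343, was in the *Ep300*Δ/Δ list at 7.92-fold (percentile 34) and in the *Tet2*-/- list at 6.46-fold (percentile 27.6), and was in neither the WT nor the double-deficient list. Adjacent promoter H3K4me3 peaks were in *Ep300*Δ/Δ alone, 0.595 kb from the nearest start at 4.21-fold, and in *Tet2*-/- alone, over a start at 3.11-fold.

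*Cd2*, which encodes an adhesion molecule of T and NK cells, had 4 H3K27ac peaks in WT and 1 in each other list. The region at its start, chr3:101287503-101287946, was 4.43-fold in WT, 2.84-fold in *Ep300*Δ/Δ, and 3.47-fold in *Tet2*-/-, and was not in the double-deficient list. The double-deficient peak lay in the adjacent region chr3:101286678-101287325, at 4.28-fold, where the WT list had 4.83-fold. The *Ep300*Δ/Δ peak at the start was among the weakest of its list, at percentile 3.69. The WT list alone had 2 more, in an intron 1.7 kb from the start at 3.68-fold and 9.54 kb away, downstream of the gene, at 5.89-fold. Promoter H3K4me3 was in all 4 lists, at 5.86-, 4.32-, 4.53-, and 11.1-fold, and promoter H3K4me1 in WT alone, at 4.32-fold.

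*Lck*, which encodes the kinase that acts beneath the T cell receptor, had transcript starts in separate groups. The region chr4:129556583-129557244 near the downstream group was acetylated in all 4 lists, at 5.83-, 4.91-, 5.48-, and 8.14-fold. The region chr4:129572603-129573570 at the upstream group was acetylated at 4.2-fold in WT, 3.37-fold in *Ep300*Δ/Δ, and 3.64-fold in *Tet2*-/-, and was not in the double-deficient list. The upstream region was the weaker of the pair, at percentiles 17.3, 10.6, and 9.47, against percentiles 40.9, 37.6, 38.2, and 59.3 for the downstream region. H3K4me3 at the downstream group was 28.4-, 25.1-, 29.1-, and 9.46-fold. At the upstream group it was 3.69-, 3.64-, and 2.85-fold in WT, *Ep300*Δ/Δ, and double-deficient, and not in the *Tet2*-/- list. Neighboring promoters in the *Lck* window were also acetylated in all 4 lists. The shared promoter region of *Eif3i* and *Tmem234* was 32.3-, 16.9-, 11-, and 10.5-fold. At *Hdac1*, 2 regions were 15.1-, 9.27-, 8.14-, and 5.53-fold and 7.88-, 5.35-, 12.2-, and 6.6-fold, and another region there was in WT alone at 3.22-fold. The other *Lck* H3K27ac regions were each in a single list. In WT alone was a region 19.3 kb downstream, at 3.35-fold. In *Ep300*Δ/Δ alone were 2 upstream regions, 1.43 and 11.2 kb from the nearest start, at 3.48- and 2.75-fold. In *Tet2*-/- alone were a region at the downstream group, at 3.47-fold, and one 1.14 kb from the upstream group, at 4.86-fold, and in double-deficient alone was an intronic region 3.43 kb from the nearest start, at 3.89-fold. All 6 stood at percentile 30.2 or lower of their lists.

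**Figure D4:**
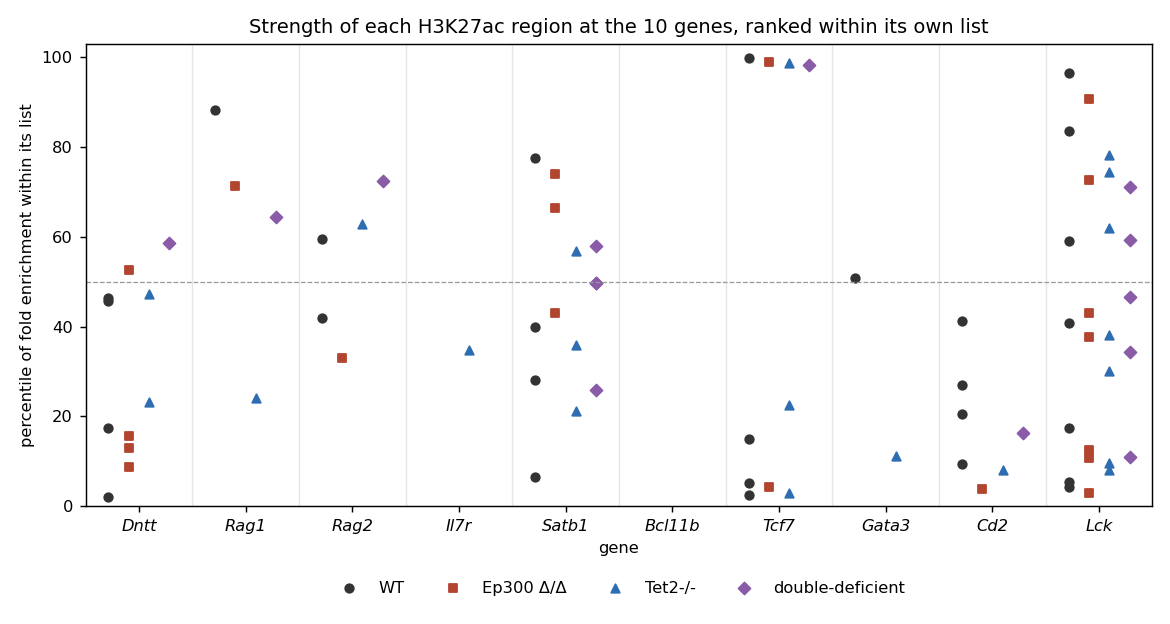
Percentile of fold enrichment within its own list (vertical axis) for the strongest peak of each H3K27ac region, under the gene nearest to it (horizontal axis), with a symbol for each genotype and the list median dashed. *Bcl11b* has no point, the *Tcf7* points at percentile 98.3 or higher are the *Skp1a* promoter, most points of *Dntt* and all of *Cd2* lie below the median of their list, and the 2 *Gata3* points stand at percentiles 50.9 and 11.1.

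To ask what deletion of *Ep300* did, the lists were compared in pairs. The peaks of both lists were merged, and a region was called lost or gained when a single list had a peak there. Of 28 WT H3K27ac regions at the 10 genes, 14 (50%, exact Clopper-Pearson 95% interval 30.65 to 69.35, which like all intervals here covers counting error only) were lost in *Ep300*Δ/Δ, where 39.7% of all regions were lost. On the *Tet2*-null background 9 of 20 (45.0%, 23.06 to 68.47) were lost from *Tet2*-/- to double-deficient, against 37.8% of all. Both intervals held the share of all regions. Gained H3K27ac regions were 5 of 19 from WT to *Ep300*Δ/Δ (26.32%, 9.147 to 51.2, against 12.8%) and 3 of 14 from *Tet2*-/- to double-deficient (21.43%, 4.658 to 50.8, against 15%). The lost regions were weak ones, as they were over the genome. Their median percentile in the WT list was 14.1, against 52.8 for the 14 kept, where all regions had 26.9 lost and 69 kept. In the *Tet2*-/- list it was 11.1, against 56.9 for the 11 kept, where all regions had 26.3 and 68.2. Strong kept regions were mostly promoters of neighbors. Of the 14 kept from WT, 7 stood above the list median. They lay at *Skp1a*, *Eif3i* with *Tmem234*, *Traf6*, *Hdac1*, and *B230118H07Rik*, and at the *Satb1* 5′ promoter. Of the 11 kept from *Tet2*-/-, 6 did, at the same neighbors except *Traf6* and at an internal *Satb1* promoter. When each H3K27ac list was limited to its 18327 peaks of highest −log10 *q*, 1 of 11 WT regions (9.09%) was lost in *Ep300*Δ/Δ and 3 of 14 (21.4%) from *Tet2*-/- to double-deficient, where all regions lost 24.1% and 23.5%.

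For H3K4me1 after *Ep300* deletion, the shares at the 10 genes stood near those of all regions. From WT to *Ep300*Δ/Δ, 38 of 97 regions (39.18%, 29.42 to 49.61) were lost and 17 of 76 (22.37%, 13.6 to 33.38) gained, where 36.7% and 24.1% of all regions were. From *Tet2*-/- to double-deficient, 28 of 93 (30.11%, 21.03 to 40.5) were lost and 15 of 80 (18.75%, 10.89 to 29.03) gained, against 31.1% and 23.4%. H3K4me3 had wider intervals. From WT to *Ep300*Δ/Δ, 9 of 32 regions (28.12%, 13.75 to 46.75) were lost and 7 of 30 (23.33%, 9.934 to 42.28) gained, against 15.4% and 11.1% of all regions. These shares depended on the settings. With a −log10 *q* of 5 or more, 13 of 28 (46.43%, 27.51 to 66.13) were lost, against 17.8% of all regions, and with lists of equal size 8 of 28 (28.57%, 13.22 to 48.67) were lost and 10 of 30 (33.33%, 17.29 to 52.81) gained, against 12.5% and 12.6%. From *Tet2*-/- to double-deficient, 5 of 29 (17.24%, 5.846 to 35.77) were lost and 4 of 28 (14.29%, 4.034 to 32.67) gained, against 13.3% and 9.45%. All 14 H3K4me3 regions lost in these comparisons stood below the median of their list, as did nearly all such regions of the genome (all but 14 of 3828 and 6 of 3564).

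To ask what *Tet2* deficiency did, WT was set against *Tet2*-/-, and *Ep300*Δ/Δ against double-deficient. All 4 lists of a mark were used in the *Ep300* comparisons above, so these comparisons are not independent of those. From WT to *Tet2*-/-, H3K4me1 at the 10 genes was lost at a smaller share than over the genome, with 14 of 91 regions lost (15.38%, 8.674 to 24.46) against 28.6% of all regions, and 16 of 93 gained (17.2%, 10.17 to 26.43) against 26.8%. Both intervals lay below the share of all regions, although regions of a locus are not independent and the intervals cover counting error only. This position depended on the settings. For losses the interval held the share of all regions with a −log10 *q* of 5 or more (8.015 to 27.67, against 23.6%) and with flanks of 100 kb (16.55 to 29.5, against 28.6%), and for gains it did so in 6 of 8 alternative settings, among them *q* under 0.05 (11.02 to 27.65, against 27.3%). In the setting without neighbors' promoters, the share of all regions left out every promoter, while the 10 genes kept their own. The regions lost had a median percentile of 18.8 in the WT list, against 58.9 for the 77 kept, where all regions had 33.4 and 60.6. From *Ep300*Δ/Δ to double-deficient, 14 of 74 H3K4me1 regions (18.92%, 10.75 to 29.7) were lost and 25 of 85 (29.41%, 20.02 to 40.29) gained, against 26.2% and 29.5%. H3K27ac was lost at 12 of 27 regions (44.44%, 25.48 to 64.67) and gained at 5 of 20 (25.0%, 8.657 to 49.1) from WT to *Tet2*-/-, against 35.6% and 20.3%. From *Ep300*Δ/Δ to double-deficient it was lost at 9 of 20 (45.0%, 23.06 to 68.47) and gained at 3 of 14 (21.43%, 4.658 to 50.8), against 31.2% and 18.5%. For H3K4me3, 6 of 32 regions (18.75%, 7.208 to 36.44) were lost and 4 of 30 (13.33%, 3.755 to 30.72) gained from WT to *Tet2*-/-, against 11.1% and 13.6%. From *Ep300*Δ/Δ to double-deficient, 6 of 30 (20.0%, 7.714 to 38.57) were lost and 1 of 25 (4.0%, 0.1012 to 20.35) gained, against 10.3% and 13.2%.

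**Figure D5:**
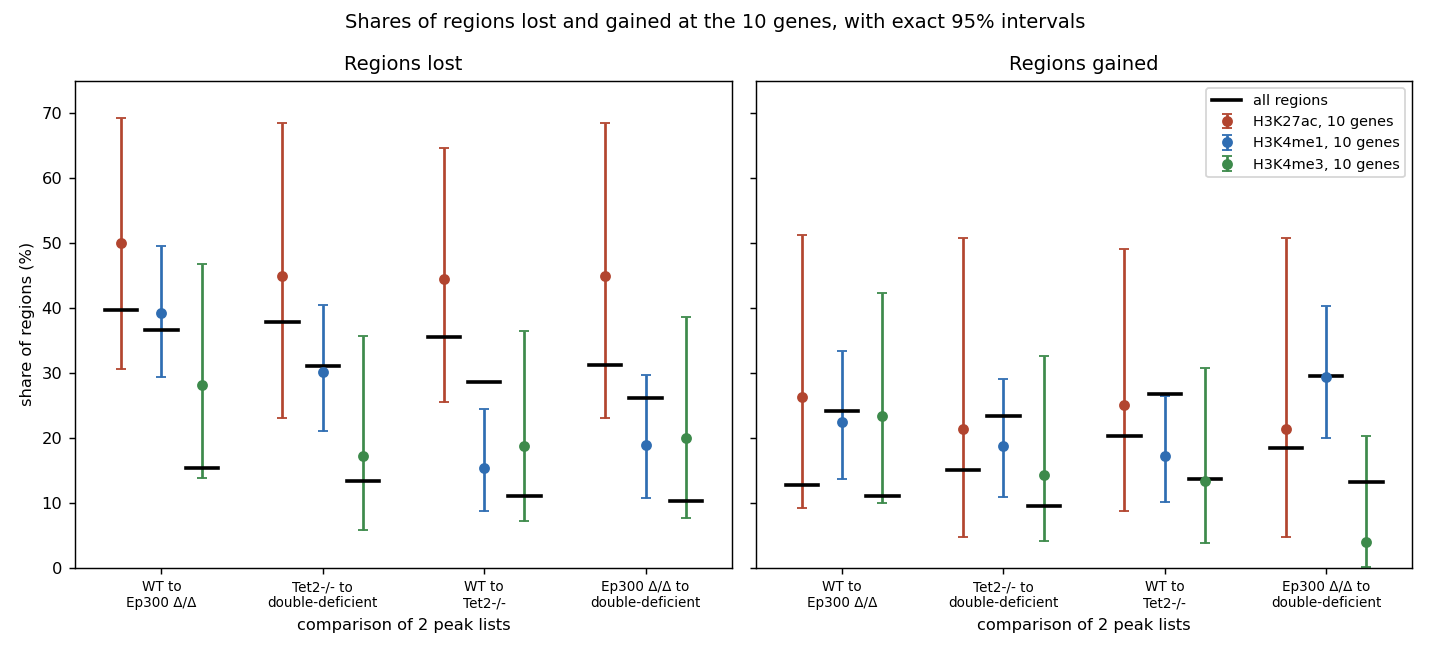
Share of regions lost (left) and gained (right), in percent, for 4 pairs of lists (horizontal axis) and 3 marks (color), with points for the 10 genes, bars for exact 95% intervals, and black lines for all regions. The H3K4me1 points from WT to *Tet2*-/- (15.38% lost, 17.2% gained) are the ones whose intervals lie below the black line.

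Merging all 4 lists of a mark gave 38 H3K27ac, 118 H3K4me1, and 36 H3K4me3 regions at the 10 genes. Of the H3K27ac regions, 11 were in all 4 lists (28.95%, against 35.5% of all regions) and 11 in WT alone (28.95%, against 21.1%). Those in all 4 lists included promoter regions of the neighbors *Skp1a*, *B230118H07Rik*, *Traf6*, *Hdac1*, and *Eif3i* with *Tmem234*. The rest of them lay at *Satb1*, *Dntt*, and *Lck*. A further 4 were in *Ep300*Δ/Δ alone (3.82% of all regions), 5 in *Tet2*-/- alone (9.48%), and 2 in double-deficient alone (3.34%). No H3K27ac region at the 10 genes was in both lists with *Ep300* and neither without it, where 6.54% of all regions were, and a count of 0 of 38 allows a share of up to 9.251%. The reverse pattern (0.732% of all regions) and the patterns that follow *Tet2* (4.28% in both lists with it and 1.33% in both lists without it) were also held by 0 of 38. Of the H3K4me1 regions, 50 were in all 4 lists (42.37%, 33.33 to 51.81, against 34.4%). None of the H3K4me1 regions followed *Tet2* in both *Ep300* states, in either direction (0 of 118, an upper limit of 3.078%, against 2.87% and 3.31% of all regions). In both lists without *Ep300* and neither with it were 2 (2.26% of all regions). In a single list were 11 for WT (9.322%, against 11.2%), 6 for *Ep300*Δ/Δ (5.085%, against 5.59%), 8 for *Tet2*-/- (6.78%, against 8.7%), and 8 for double-deficient (6.78%, against 6.28%), and all 4 intervals held the share of all regions. Of the H3K4me3 regions, 20 were in all 4 lists (55.56%, against 64.1%). The WT, *Ep300*Δ/Δ, and *Tet2*-/- lists alone each held 2 (5.41%, 3.05%, and 5.11% of all regions) and the double-deficient list alone 0 (4.05%). In both lists with *Tet2* and neither without it were 2 (1.68%), and 0 had the reverse pattern (2.4%).

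Away from promoters of any gene, the 10 loci had 6, 5, 3, and 3 H3K27ac peaks in the WT, *Ep300*Δ/Δ, *Tet2*-/-, and double-deficient lists, of which 2, 4, 3, and 2 overlapped H3K4me1 of the same genotype and so met the definition of an active enhancer. Over the genome, 36.5%, 25.3%, 31.1%, and 23.2% of H3K27ac peaks lay away from promoters, and 87.8%, 88.6%, 85.7%, and 87.5% of those overlapped H3K4me1. H3K4me1 away from promoters was far more common, with 55, 35, 52, and 46 peaks, and 3, 3, 2, and 2 of them were acetylated. This is 5.45%, 8.57%, 3.85%, and 4.35%, where 13.9%, 8.55%, 9.97%, and 6.86% of such peaks were acetylated over the genome. Of the 14 H3K27ac regions lost in *Ep300*Δ/Δ, 8 had H3K4me1 in WT and 7 in *Ep300*Δ/Δ, and 4 had H3K4me3 in WT and 3 in *Ep300*Δ/Δ. Of all H3K27ac regions lost there, 82.1% and 73.5% had H3K4me1 and 33.6% and 27% had H3K4me3. Of the 9 lost from *Tet2*-/- to double-deficient, 7 had H3K4me1 in *Tet2*-/- and 5 in double-deficient, and 4 had H3K4me3 in *Tet2*-/- and 5 in double-deficient, against 75% and 71.9% with H3K4me1 and 46.7% and 41.2% with H3K4me3 of all regions lost.

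Genes that work with the 10 were read by the same promoter calls. Of all coding genes, 47.3%, 44.9%, 46.4%, and 43.1% had promoter H3K27ac in the WT, *Ep300*Δ/Δ, *Tet2*-/-, and double-deficient lists. Promoter H3K4me3 was present at 61.9%, 63.1%, 62.3%, and 62.6% of them. Of 10 genes for the end joining step of V(D)J recombination, which also repair DNA breaks in other cells, 10, 10, 10, and 9 had promoter H3K27ac in the WT, *Ep300*Δ/Δ, *Tet2*-/-, and double-deficient lists. The exception was *Lig4*, the ligase that seals the joints, which lacked it in double-deficient. The end joining genes were thus acetylated in lists where the recombinase genes *Rag1* and *Rag2* were not. Of 12 further lymphoid transcription factor genes, 9, 8, 10, and 8 had promoter H3K27ac, and all 12 had promoter H3K4me3 in every list. *Ikzf3*, an Ikaros family gene, lacked it in double-deficient, *Tox* had it in *Tet2*-/- alone, and *Foxo1* had it in every list but *Ep300*Δ/Δ. Of 12 T cell receptor signaling genes, 5, 5, 5, and 2 had promoter H3K27ac, near the share of all coding genes in 3 lists. *Zap70*, a kinase that binds the activated receptor, and *Cd5* had it in every list but double-deficient and *Cd28* in *Tet2*-/- alone, while *Cd3d* and *Fyn* had it in all 4. Of these genes, *Zap70*, *Ikzf3*, and *Lig4* shared all 12 promoter calls, over 3 marks and 4 lists, with *Dntt*, as did the marker genes *Gata2* and *Klf1*. *Satb1* and *Lck* had all 12 calls positive, which 22 other genes in these lists shared with each. *Tcf7* shared all 12 with *Hes1*, *Lat*, *Lef1*, and *Thy1*, and no gene in the lists shared 11 or more with *Il7r*.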

How the data were processed

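H3K27ac, H3K4me1, and H3K4me3 were measured by ChIP-Seq in 12 libraries of Lin- bone marrow cells, 1 per genotype and mark. The other 8 of the 20 samples of the series, for H3 and H3K27me3, were not analysed here. Groups were taken from the sample labels, and each immunoprecipitation had 1 μg of antibody, 5 μg of mouse chromatin, and a *Drosophila* chromatin spike-in of 10 ng. For the H3 antibody, the labels and the methods give different catalog numbers, and the labels give single-end where the methods give paired-end reads.

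The authors used Cutadapt 1.15 for adapter trimming and BWA 0.7.13 for alignment to mm10, removed duplicates with Picard, filtered by mapping quality and against blacklisted regions, and called peaks with MACS2 2.1.1.20160309 against the H3 library, keeping those found in pseudo-replicates (versions per the submitters' processing notes). The deposited lists give for each peak a position, a summit, a score, the −log10 of its *P* and *q* values, and its fold enrichment, for which the H3 library served as background. The deposited score was not used. The fold enrichment is a ratio within 1 library in the authors' lists and is given for each list beside the others without being read as a change in amount, and its percentile is the share of the list's peaks at or below it. The methods state a *q* under 0.05, yet 36 to 4372 peaks per list exceed it. For H3K27ac these were 1630 peaks (7.17%) in *Ep300*Δ/Δ. The WT, *Tet2*-/-, and double-deficient lists had 267 (0.9%), 199 (0.811%), and 143 (0.78%). The methods do not describe scaling of the lists by the spike-in. The number of peaks in a list moves with library depth and yield, which the lists do not give.

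Peaks were assigned with GENCODE release M21 on GRCm38, and 0 peaks ended past a chromosome end of the reference. Lists were merged, and an overlap of 1 bp counted as shared. A promoter was the 3000 bp before and after any transcript start. Sequences came from the RefSeq assembly GRCm38.p6. Python 3.11.15, scipy 1.17.1, and matplotlib 3.10.9 were used. Overlap calls were tested on simulated data, where 100% of 20000 simulated regions were recovered. No test was run between genotypes, and shares carry exact Clopper-Pearson 95% intervals. All 10 genes were described, with every H3K27ac region, and for the other marks a selection of promoter peaks and of strong or differing regions. Other genes were named when they start inside a window or when their promoter H3K27ac differed between lists. One result under this rule is not reported here. The 10 genes, the gene lists, and the windows were chosen with earlier results of these data known, and the motifs, the sequences shown, the pattern classes, the percentiles of lost and kept regions, and the count of regions in all 12 lists were chosen after seeing the data. Alternatives were a 50% overlap, a −log10 *q* of 5, lists of equal size, peaks above the list median, no flanks or flanks of 100 kb, promoters of 1000 bp, gene-record starts, leaving out neighbors' promoters, and, added after seeing the data, peaks with *q* under 0.05 only.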

Additional observations from a re-analysis of the deposited data

Results flagged for a closer look

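At 7 regions, deletion of *Ep300* went with the loss of a peak on one *Tet2* background and with its appearance on the other. Each rests on single libraries, and the difference was not tested. Present in the WT and double-deficient lists only were a *Cd2* H3K27ac region near its start (4.83- and 4.28-fold) and 2 *Rag1* H3K4me1 regions, at the start (3.5- and 4.76-fold) and 3.06 kb upstream (5.14- and 4.19-fold). Present in the *Ep300*Δ/Δ and *Tet2*-/- lists only were H3K4me1 regions 15.0 kb upstream of *Dntt* (4.28- and 3.34-fold), in an intron near the *Gata3* start (3.84- and 3.1-fold), and in a *Rag2* intron (4.33- and 7.82-fold), and the H3K4me3 region near the *Bcl11b* start (7.92- and 6.46-fold). Among all H3K4me1 regions, 2.19% had the former pattern and 1.99% the latter, against 2 and 3 of 118 at the 10 genes. For H3K27ac the former pattern was held by 1.32% of all regions and by 1 of 38 at the 10 genes, and for H3K4me3 the latter by 0.857% and by 1 of 36.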

How the results depend on the processing

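No paired analysis was possible because each genotype and mark had 1 library and all labels carry the same replicate number. No replicate could be left out for the same reason. The 24 shares stayed within their intervals when 50% of a region had to be covered, with flanks of 100 kb, and with *q* under 0.05, and the 12 promoter counts stayed within 1.5 times with gene-record starts and *q* under 0.05. A share that stayed within its interval could still change its place against all regions. For H3K4me1 from WT to *Tet2*-/-, flanks of 100 kb brought the share of all regions into both intervals, and *q* under 0.05 brought it into the interval for gains. The share of all H3K4me3 regions came to lie below the interval of the 10 genes in these cases. Losses from WT to *Ep300*Δ/Δ did so with a −log10 *q* of 5 or more, with lists of equal size, and within gene bodies (38.1%, 18.11 to 61.56, against 15.4%). Losses from WT to *Tet2*-/- did so with flanks of 100 kb (23.21%, 12.98 to 36.42, against 11.1%) and *q* under 0.05 (27.27%, 13.3 to 45.52, against 11.2%). Losses from *Ep300*Δ/Δ to double-deficient did so with lists of equal size (9 of 30, 14.73 to 49.4, against 13.6%) and flanks of 100 kb (24.53%, 13.76 to 38.28, against 10.3%). Gains did so from WT to *Ep300*Δ/Δ with lists of equal size and from *Ep300*Δ/Δ to double-deficient with a −log10 *q* of 5 or more (11.89 to 54.28, against 10.1%). Without neighbors' promoters, H3K4me1 losses from *Ep300*Δ/Δ to double-deficient were 13.95% (5.298 to 27.93). The share of all regions in that setting, 28.2%, left out every promoter, while the 10 genes kept their own. These shares are therefore not a like comparison. The cause was not tested for any value that left its interval, except that stricter settings count fewer regions. With a −log10 *q* of 5 or more, H3K4me1 lost from WT to *Ep300*Δ/Δ came to 56.92%, H3K27ac lost from *Tet2*-/- to double-deficient to 21.43% and from *Ep300*Δ/Δ to double-deficient to 0.0% (0 of 9), H3K4me1 gained from WT to *Tet2*-/- to 29.73% and from *Ep300*Δ/Δ to double-deficient to 50.94%, H3K4me3 gained from *Ep300*Δ/Δ to double-deficient to 30%, and promoter H3K27ac to 1 gene in *Ep300*Δ/Δ and 3 in *Tet2*-/-. The share of all regions in this setting is not given beside these H3K27ac and H3K4me1 shares. They therefore cannot be read as a difference from all regions. With lists of equal size, H3K27ac lost and gained from WT to *Ep300*Δ/Δ both came to 9.091%, lost from *Tet2*-/- to double-deficient to 21.43%, lost from WT to *Tet2*-/- to 9.091%, and lost from *Ep300*Δ/Δ to double-deficient to 0.0%, and promoter H3K27ac to 3 genes in WT, 2 in *Ep300*Δ/Δ, and 3 in *Tet2*-/-. Of these shares, only the losses after *Ep300* deletion have the share of all regions given in the Results. The others cannot be read as a difference from all regions. With regions above the list median only, H3K27ac lost came to 12.5% from WT to *Ep300*Δ/Δ, 12.5% from WT to *Tet2*-/-, and 0.0% into double-deficient from either single genotype, against 12.9%, 11%, 12% (from *Tet2*-/-), and 8.82% (from *Ep300*Δ/Δ) of all regions, and H3K27ac gained came to 0.0% in all 4 comparisons, against 1.81% to 4.22% of all. In that setting H3K4me1 lost came to 28.57% from WT to *Ep300*Δ/Δ, 14.63% from *Tet2*-/- to double-deficient, and 5.455% from WT to *Tet2*-/-, H3K4me1 gained to 11.11%, 6.977%, and 2.5% in the same comparisons and to 16.28% from *Ep300*Δ/Δ to double-deficient, and H3K4me3 lost and gained to 0.0% in all 4 comparisons, against 0.00758% to 0.137% of all regions. Of all H3K4me1 regions above the list median, 12299 were lost and 39404 kept from WT to *Ep300*Δ/Δ. These numbers were 9496 and 38329 from *Tet2*-/- to double-deficient, and 7995 and 41784 from WT to *Tet2*-/-. For H3K4me1 gained the share of all regions is not given, so no difference from all regions can be read. Within gene bodies alone, H3K4me1 lost from WT to *Tet2*-/- was 8.163%, against 28.6% of all regions, inside genes or not. Without neighbors' promoters, H3K27ac lost into double-deficient was 70.0% (7 of 10, 34.75 to 93.33) from either single genotype. All regions away from every promoter lost 61.9% (from *Tet2*-/-) and 51.6% (from *Ep300*Δ/Δ), which again is not a like comparison. With promoters of 1000 bp, 3 genes had promoter H3K27ac in WT. The H3K27ac shares lost and gained between pairs of whole lists rest on 14 to 28 regions, which limits what they can show.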
